A study of Mus musculus with 9 samples.

Results

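The genes described here encode the proteins of the mitochondrial ribosome. They were chosen by name: every row of the authors' deposited tables whose mouse symbol is Mrpl or Mrps followed by a number and at most one letter a, b or c. The rule matched 78 of 57010 gene identifiers in each table, 49 named for the large subunit (Mrpl) and 29 for the small subunit (Mrps). The study sequenced mRNA from 9 libraries of mouse organoids, which are cultures of cells grown in 3 dimensions: 3 of normal lung (Normal), 3 of small cell lung cancer (SCLC) and 3 of SCLC treated with GSK. The sources used here do not give the strain, age, genotype, culture history or number of animals or lines behind any group, nor what GSK is, its dose or its time. Nothing says that the 3 libraries of a group came from separate cultures, so a p-value here measures only the spread between libraries, which may be technical.

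The mitochondrial ribosome translates the few proteins encoded by the mitochondrial genome, all of them parts of the respiratory chain and ATP synthase. Its ribosomal RNAs come from the mitochondrial genome, but all its proteins are encoded in the nucleus, made on cytosolic ribosomes and imported. The small subunit reads the messenger RNA and the large subunit joins the amino acids. Many of the proteins have relatives in the bacterial ribosome, while others are specific to mitochondria. The symbols do not map onto the subunits exactly: the products of Mrps18a and Mrps30 sit in the large subunit, and the product of Mrps36 is known as a component of the 2-oxoglutarate dehydrogenase complex.

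All values below come from the authors' 2 deposited tables, one of SCLC against Normal and one of GSK against control, each built on 3 libraries against 3. Each table gives a gene's mean normalized count over the 6 libraries, its log2 fold change with a standard error (written after ±), and a p-value adjusted by the Benjamini-Hochberg method. No column holds a single library, so values per library, their overlap and the depth of each library are unknown. The level of a gene in each group was computed from its mean and its fold change, and is called the implied mean. For 13634 genes, those whose mean reached 50 in each table, the implied mean of the control differed from that of SCLC in the other table by a near constant log2 ratio (median 0.11, SD across genes 0.0084). The 3 controls are therefore called SCLC below. Both comparisons share these libraries, so an SCLC library that stood apart would move a gene in opposite directions in the 2 tables.

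The labels were checked against marker genes named for each cell type, as sums of implied means. The 7 neuroendocrine markers summed to 79.0 normalized counts in Normal and 187278 in SCLC, and the 5 alveolar type II markers to 2641470 and 4543 (authors' deposited table, SCLC against Normal). In the other deposited table, the 5 fibroblast markers summed to 25.6 in SCLC and 13885 in GSK, the 5 immune markers to 59.1 and 22824, and the 5 endothelial markers to 53.2 and 15213.

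The promoters of these genes are shown first, because most members moved together in each comparison. RefSeq promoters (GRCm38.p6, 250 bases before to 50 after the start) were found for 69 of the 78 members. The words searched, on both strands, were chosen from about 15 spellings after their counts had been seen. They were GCGCATGCG for NRF1 (nuclear respiratory factor 1, a known activator of genes of mitochondrial function), CCGGAAG for the ETS family (which includes the GABP factor), ATGGCGG for YY1, CACGTG for the E-box (bound by MYC and its partners) and TATAAA for the TATA box. Below, 130 bases are printed 5′ to 3′ in the direction of transcription, from 100 bases before to 30 after the start. Capitals mark the NRF1, ETS and YY1 words. Mrpl22, Mrpl9 and Mrps18a are shown because their windows hold more than 1 kind of word, Mrps5 and Mrpl12 because they had the largest rises of their subunits in SCLC, Mrps12 and Mrpl34 because they had the largest falls with GSK, and Mrpl33 because it fell in SCLC. All 8 were chosen after their values were seen.
Mrpl22: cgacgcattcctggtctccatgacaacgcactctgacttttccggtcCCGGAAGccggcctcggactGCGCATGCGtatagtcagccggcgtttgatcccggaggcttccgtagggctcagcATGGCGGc
Mrpl9: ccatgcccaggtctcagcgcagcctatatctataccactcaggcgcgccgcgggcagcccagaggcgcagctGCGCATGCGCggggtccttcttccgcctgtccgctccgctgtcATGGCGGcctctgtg
Mrps18a: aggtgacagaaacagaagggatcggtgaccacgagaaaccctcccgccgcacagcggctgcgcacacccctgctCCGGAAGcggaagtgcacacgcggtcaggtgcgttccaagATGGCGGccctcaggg
Mrps5: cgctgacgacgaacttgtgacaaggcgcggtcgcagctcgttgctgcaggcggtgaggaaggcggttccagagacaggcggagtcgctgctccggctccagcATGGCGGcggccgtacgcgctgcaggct
Mrpl12: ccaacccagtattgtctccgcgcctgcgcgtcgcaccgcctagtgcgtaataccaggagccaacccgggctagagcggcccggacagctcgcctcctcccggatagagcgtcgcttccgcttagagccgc
Mrps12: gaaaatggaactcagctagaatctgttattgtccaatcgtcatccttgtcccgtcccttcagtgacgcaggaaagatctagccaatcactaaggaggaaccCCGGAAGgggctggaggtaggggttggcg
Mrpl34: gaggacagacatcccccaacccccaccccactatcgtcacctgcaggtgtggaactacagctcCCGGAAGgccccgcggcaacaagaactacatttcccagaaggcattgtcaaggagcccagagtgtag
Mrpl33: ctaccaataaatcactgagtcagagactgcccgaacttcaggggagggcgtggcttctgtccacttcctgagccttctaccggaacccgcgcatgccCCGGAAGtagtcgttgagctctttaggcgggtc
The Mrpl22 window lies at chr11:58171564-58171693 (plus strand), Mrpl9 at chr3:94443236-94443365 (plus strand), Mrps18a at chr17:46110904-46111033 (plus strand) and Mrps5 at chr2:127587326-127587455 (plus strand). Mrpl12 lies at chr11:120484537-120484666 (plus strand), Mrps12 at chr7:28741792-28741921 (minus strand), Mrpl34 at chr8:71464826-71464955 (plus strand) and Mrpl33 at chr5:31613851-31613980 (plus strand).

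The ETS word was found in 25 of 69 member promoters (36.2%) and in 11.9% of 17492 promoters of protein-coding genes. The NRF1 word was found in 7 members (10.1%, against 2.41% of coding promoters) and the YY1 word in 13 (18.8%, against 5.41%). Of the 13 members with the YY1 word, 12 had it after the start, as in Mrps5 above, while 53.4% of the coding promoters with the word did. The letters ATG that begin this word are also those of a start codon. At least 1 of the 3 words was in 36 of 69 member promoters (52.2%) and in 17.9% of coding promoters, and no 2 different words of the 3 overlapped in any of them. Each of the 3 words contains the letters CG. Member promoters held a median of 21 CG pairs and coding promoters 13, and the part of this in the counts of words was not tested. The E-box word was in 7.25% of members and 7.90% of coding promoters, and the TATA word in 5.80% and 13.3%. For the ETS word, the median log2 fold change was 1.15 with and 1.19 without it in SCLC against Normal, and -0.96 and -0.95 in GSK against SCLC, from the authors' deposited tables. For the YY1 word the medians were 1.33 with and 1.09 without it in SCLC, and -0.87 and -0.99 with GSK. For the NRF1 word they were 1.17 and 1.13, and -0.83 and -0.96. For the TATA word, held by 4 members, they were 0.86 and 1.19, and -1.50 and -0.92. For the E-box word, held by 5 members, they were 1.37 and 1.12, and -0.97 and -0.93. None of these differences was tested. Mrpl33, which fell in SCLC, and Mrps12, which rose, both hold the ETS word beside the start. These are matches of letters, and binding was not measured.

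The first comparison asks how SCLC organoids differ from normal lung organoids. Of the 77 members tested in the authors' deposited table, 62 were higher in SCLC and 2 were lower at an adjusted p under 0.05, and 13 did not pass. Of all 24719 genes tested, 25.3% were higher and 25.1% lower. Among the 12887 genes with a mean of at least 100, which every tested member reached, 37.2% were higher and 29.5% lower. Mrpl53 was listed at 0 and not tested. GENCODE M21 places 88.0% of its exonic bases inside exons of another gene on the same strand, Gm42688. The median log2 fold change of the members was 1.21, a 2.31-fold rise, and that of all genes tested was 0.10. The members' own fold changes ranged from -1.46 to 2.40 with an SD of 0.65 across genes, and 73 of 77 were above 0. Total-count scaling, which sets the 2 groups' summed normalized counts equal, moved all fold changes up by 0.09 and gave 65 higher and 1 lower.

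**Figure D1:**
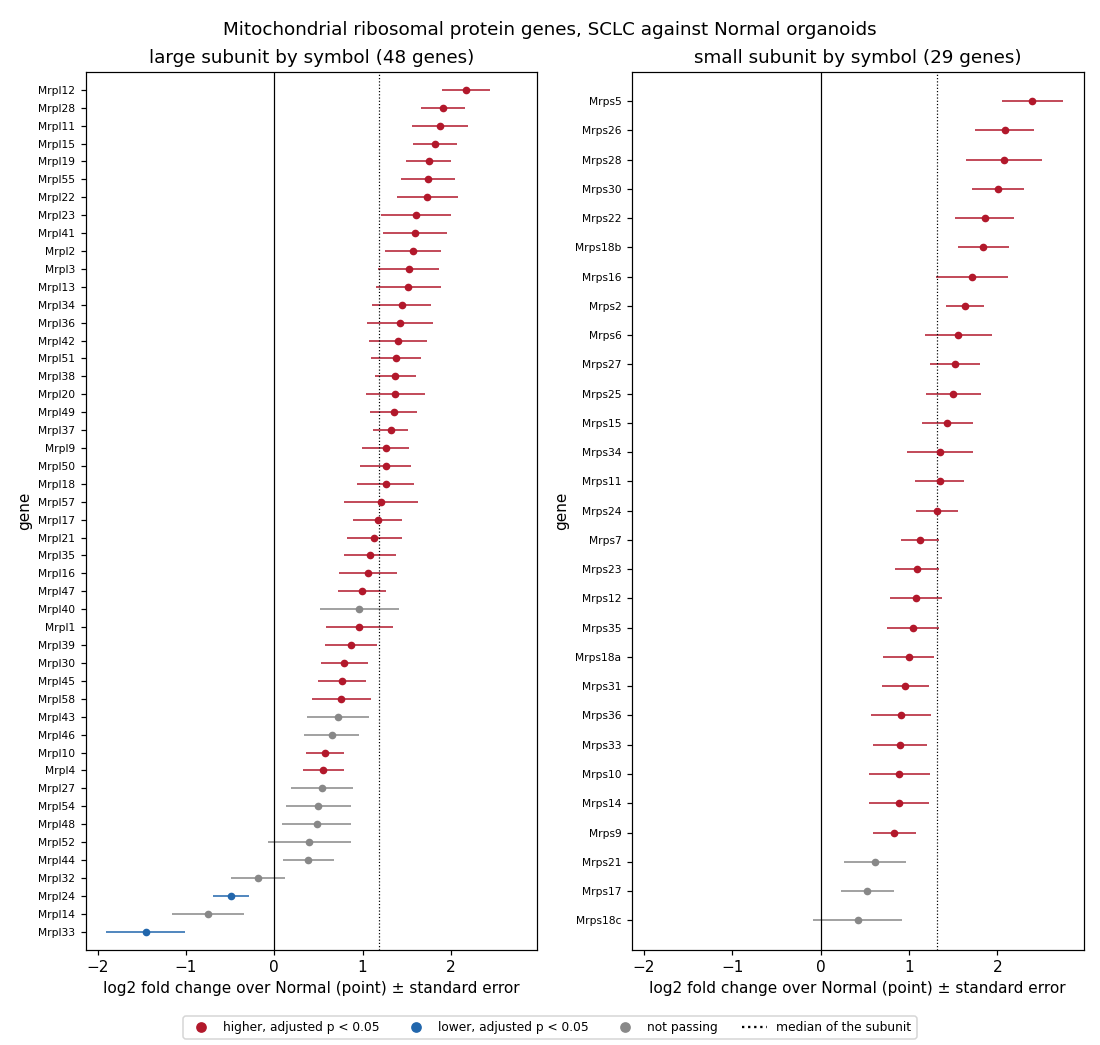
Log2 fold change in SCLC over Normal organoids (x axis) for each of the 77 tested genes (y axis), large subunit left and small subunit right; points are the authors' fold changes, bars their standard errors, colours the adjusted p and dotted lines the medians of 1.19 and 1.32. Nearly all points lie right of 0, and the 4 left of 0 are Mrpl32, Mrpl24, Mrpl14 and Mrpl33 of the large subunit.

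The implied means of all members summed to 0.204% of all normalized counts in Normal and 0.493% in SCLC, a 2.42-fold larger share. The large subunit went from 0.140% to 0.326% and the small subunit from 0.0642% to 0.167%. Per kilobase of transcript, which allows levels of different genes to be compared, the median implied level of the large subunit was 812 normalized counts in Normal and 1771 in SCLC. That of the small subunit was 622 and 1469. The highest levels per kilobase in SCLC were those of Mrpl20 (9895), Mrpl28 (7180) and Mrpl34 (7156) in the large subunit. In the small subunit they were those of Mrps21 (7996), Mrps24 (4626) and Mrps12 (3856).

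**Figure D2:**
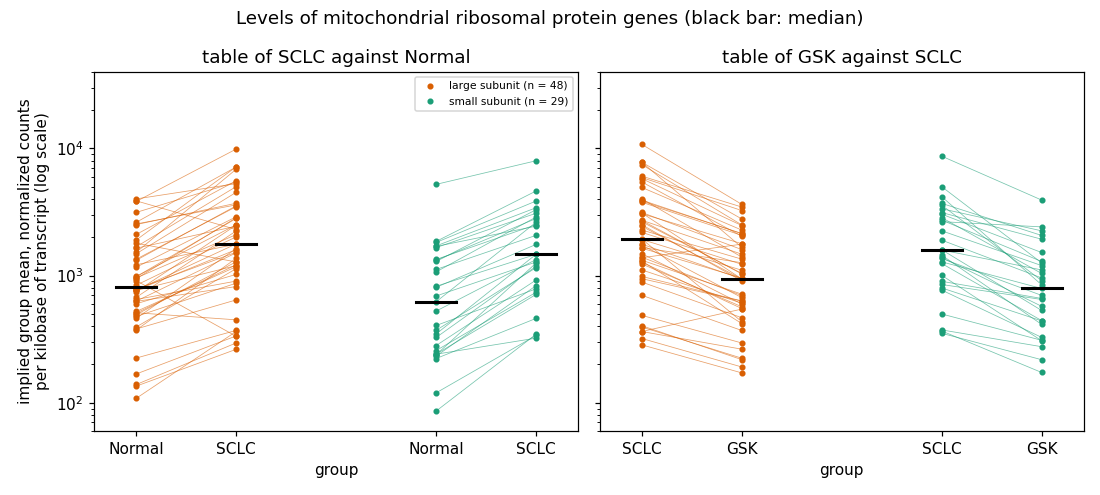
Implied group means per kilobase of transcript on a log axis, each line 1 gene and black bars the medians of the large (n = 48) and small (n = 29) subunit; the left panel is from the table of SCLC against Normal and the right from that of GSK against SCLC, which were normalized separately. Medians rise from 812 to 1771 (large) and 622 to 1469 (small) in the left panel and fall from 1929 to 948 and 1589 to 792 in the right.

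By subunit, 36 of 48 tested large-subunit genes were higher and 2 lower, with a median of 1.19. Of the 29 small-subunit genes, 26 were higher and none lower, with a median of 1.32, and all 29 fold changes were above 0. The difference of the medians, large minus small, was -0.13. It was -0.14 with Mrps18a and Mrps30 counted as large and Mrps36 left out. It was 0.14 among the genes listed as having a bacterial homologue (29 large and 15 small), where the medians were 1.26 and 1.12. Among the genes listed as specific to mitochondria, with Mrps30 counted as large, the large-subunit median was 0.96, with 12 of 19 higher. The small-subunit median was 1.35, with 9 of 9 higher. These lists leave out Mrps18a and Mrpl55 of the large subunit, and Mrps18b (1.84) and Mrps28 (2.08) of the small. Mrps18b and Mrps28 both lie above 1.12, so the sign of the 0.14 depends on the list. The difference between the subunits was not tested.

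In the small subunit, Mrps5 had the largest rise of all members. Its product is the relative of the bacterial protein uS5 near the entry of the messenger RNA. Its implied mean was 1068 normalized counts in Normal and 5623 in SCLC, a log2 fold change of 2.40 ± 0.35 in the authors' deposited table (Benjamini-Hochberg adjusted p = 3.27e-11). Mrps26 followed, from 1485 to 6288 (2.08 ± 0.34, adjusted p = 4.5e-09), and Mrps28, from 487 to 2055 (2.08 ± 0.43, adjusted p = 6.37e-06), in the same deposited table. Mrps12, whose product lines the decoding centre, went from 1462 to 3095 with a log2 fold change of 1.08 ± 0.30 (adjusted p = 0.000766). Mrps34, a mitochondria-specific protein needed for a stable small subunit, rose by 1.35 ± 0.38 (adjusted p = 0.000904), and did not pass once trends with transcript length and GC content were removed (0.57, adjusted p = 0.203). The lists used here for the head of the small subunit, and for its body and platform, hold no gene listed as specific to mitochondria. All 5 genes listed for the head rose (Mrps7, Mrps9, Mrps10, Mrps14 and Mrps24, from 0.83 to 1.32). With the median gene set to 0, 3 of the 5 rose, and Mrps10 and Mrps14 did not pass. Of the 9 genes listed for the body and platform 6 rose, with Mrps17 (0.53 ± 0.30), Mrps18c (0.42 ± 0.50) and Mrps21 (0.62 ± 0.35) not passing in the authors' deposited table.

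Mrps30 and Mrps18a, which carry small-subunit names and belong to the large subunit, rose in the authors' deposited table by 2.01 ± 0.30 (adjusted p = 7.91e-11) and 0.997 ± 0.29 (adjusted p = 0.0014). The 3 genes of the S18 family encode proteins with a shared bacterial relative. Mrps18b rose from an implied mean of 219 to 784 normalized counts (1.84 ± 0.29, adjusted p = 9.03e-10), while Mrps18c, at 154 and 205, was among the lowest members. Mrps36 rose by 0.91 ± 0.34 (adjusted p = 0.016), and not with the median gene set to 0 (0.73, adjusted p = 0.0598).

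In the large subunit, the stalk recruits translation factors, and its protein Mrpl12 had the largest rise. The implied mean of Mrpl12 was 2012 normalized counts in Normal and 9053 in SCLC (2.17 ± 0.28, adjusted p = 3.03e-14). At the base of the stalk, Mrpl11 rose by 1.87 ± 0.32 (adjusted p = 2.18e-08) and Mrpl10 by 0.58 ± 0.21 (adjusted p = 0.0166). The rise of Mrpl10 did not pass with the median gene set to 0 (0.39, adjusted p = 0.116). Mrpl54, the other of the 4 tested stalk genes, had 0.50 ± 0.37 and did not pass (adjusted p = 0.262). The 4 genes around the catalytic core rose: Mrpl2, Mrpl3, Mrpl4 and Mrpl16, from 0.56 to 1.57. Mrpl4 did not pass with the median gene set to 0 or with trends over length and GC content removed. Mrpl3, whose product reaches toward the peptidyl transferase centre, had implied means of 1240 and 3563 (1.52 ± 0.34, adjusted p = 3.28e-05).

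Around the exit tunnel, through which the new protein leaves, 5 of 7 genes rose and 1 fell. Mrpl45, whose product helps to hold the ribosome at the inner membrane, rose by 0.77 ± 0.27 (adjusted p = 0.0104) and did not pass with the median gene set to 0 (0.58, adjusted p = 0.0578). Its neighbour Mrpl44 had 0.39 ± 0.29 and did not pass (adjusted p = 0.273). In the central protuberance, a projection of the large subunit, 4 of 8 genes rose. One of these is Mrpl58, a peptidyl-tRNA hydrolase built into the ribosome (0.76 ± 0.34, adjusted p = 0.0477), whose call was lost when the adjustment ran over every gene with a p-value (adjusted p = 0.0647) or with the median gene set to 0 (adjusted p = 0.144). Mrpl28 went from 1998 to 7517 (1.91 ± 0.25, adjusted p = 3.68e-13) and Mrpl20 from 1893 to 4888 (1.37 ± 0.33, adjusted p = 0.000132), per the authors' deposited table.

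The 2 members that were lower in SCLC both belong to the large subunit. Mrpl33, one of its smallest proteins, had an implied mean of 435 normalized counts in Normal and 159 in SCLC, a log2 fold change of -1.46 ± 0.45 in the authors' deposited table (adjusted p = 0.00304). Mrpl24, at the rim of the exit tunnel, had 2208 and 1572 (-0.49 ± 0.20, adjusted p = 0.0314). The lower level of Mrpl24 did not pass with total-count scaling (-0.40, adjusted p = 0.0855). Of its exonic bases, 26.3% lie opposite exons of Rrnad1. Mrpl14 (-0.75 ± 0.41) and Mrpl32 (-0.18 ± 0.31) were also below 0 and did not pass. With the median gene set to 0, 3 members were lower, and Mrpl14 was the third.

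Other cell types and cell division differed between the same groups. All 5 cell division markers were higher in SCLC, and their implied means summed to 8852 normalized counts in Normal and 83014 in SCLC. All 5 fibroblast markers (9060 and 23.7) and all 5 immune markers (1856 and 55.0) were lower in SCLC, as were 3 of 5 endothelial markers (115 and 49.9), and Ptprc, Adgre1, Itgam, Cdh5, Tie1 and Emcn lay under 1 in SCLC. The alveolar type II markers alone made up 5.91% of all normalized counts in Normal and 0.0108% in SCLC. The part of these differences in the members' rise was not tested. In bulk samples, fewer cells of a type and less RNA per cell cannot be told apart.

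The second comparison sets the libraries labelled as SCLC organoids treated with GSK against SCLC. Markers of immune, endothelial and fibroblast cells that were near 0 in SCLC were higher in these libraries. The labels do not say whether they came from another kind of sample, so treatment and such a difference cannot be told apart. Of the 77 tested members, 50 were lower in GSK and none higher in the authors' deposited table, and 27 did not pass. Of all 28376 genes tested, 15.5% were lower and 21.6% higher. The median log2 fold change of the members was -0.92, which leaves 52.9% of the SCLC level, and that of all genes tested was 0.24. Among the 13498 genes with a mean of at least 100, the median was -0.25. The members ranged from -2.31 to 0.59, with 75 of 77 below 0.

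The size of this fall depended on the scale. The implied totals of normalized counts were 0.704 times as large in GSK as in SCLC, so total-count scaling moved every fold change up by 0.51. With it 21 members were lower and 1 higher, where 6.94% of all genes were lower and 30.8% higher. The members' median was -0.41 with 69 of 77 below 0. Genes with a mean of at least 100 were not counted separately with this scaling. The 21 were Mrpl2, Mrpl4, Mrpl10, Mrpl11, Mrpl12, Mrpl16, Mrpl20, Mrpl22, Mrpl28, Mrpl34, Mrpl41, Mrpl46, Mrpl55, Mrpl57, Mrps2, Mrps11, Mrps12, Mrps16, Mrps24, Mrps26 and Mrps34. With the median gene set to 0, 29 were lower and 1 higher. As a share of all normalized counts, the members made up 0.496% in SCLC and 0.329% in GSK, 1.51-fold less.

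Markers of other cell types were higher in the same libraries. All 5 fibroblast, all 5 immune and all 5 endothelial markers were higher in GSK, under each of the 3 scalings. Ptprc, the pan-leukocyte gene, had an implied mean under 1 in SCLC and 12562 normalized counts in GSK. Itgam, Adgre1, Tie1, Emcn and Cdh5 were also under 1 in SCLC, at 361 to 5311 in GSK. These 15 markers together held 0.163% of all normalized counts in GSK. Of the 7 neuroendocrine markers 4 were lower and 1 higher, and their sum fell from 202385 to 102572 normalized counts, with Syp at -1.33 ± 0.33 and Chga at 0.06 ± 0.33 in the authors' deposited table. Of the 5 alveolar type II markers 4 were higher, with log2 fold changes from 2.58 to 6.78. The 5 summed to 4867 and 6115, and most of the SCLC sum was Abca3 (4511 and 2875), which did not pass. Of the 5 cell division markers, 2 were lower and 1, Mki67, higher (89651 and 82573 summed), and 1 was lower with total-count scaling. The part of these differences in the members' fall was not tested, and a lower level in the tumour cells cannot be told apart from a smaller share of them.

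**Figure D3:**
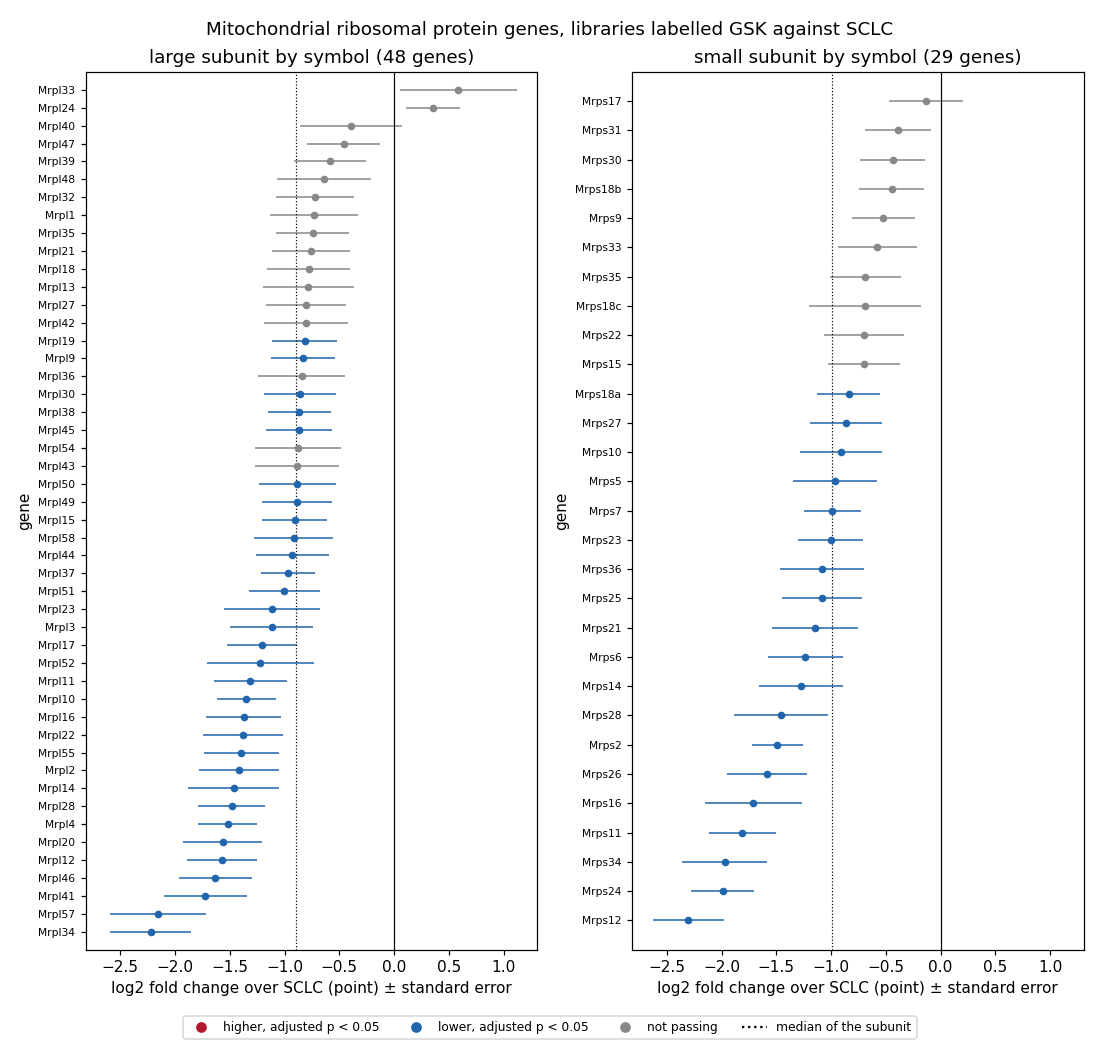
Log2 fold change in the libraries labelled GSK over SCLC (x axis) for each of the 77 tested genes (y axis), large subunit left and small subunit right; points are the authors' fold changes, bars their standard errors, colours the adjusted p and dotted lines the medians of -0.90 and -0.99. Only Mrpl33 and Mrpl24 lie right of 0 and neither passes; with total-count scaling all points would move right by 0.51.

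By subunit, 31 of 48 large-subunit genes and 19 of 29 small-subunit genes were lower in GSK. The medians were -0.90 and -0.99, a difference, large minus small, of 0.09 that was not tested. They were -0.91 and -1.15 among the genes listed above as having a bacterial homologue, and -0.89 and -0.86 among those listed as specific to mitochondria. With total-count scaling, 14 large and 7 small members were lower, with medians of -0.39 and -0.48. The share of all normalized counts fell from 0.328% to 0.217% in the large subunit and from 0.168% to 0.112% in the small, 1.51-fold and 1.50-fold.

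The largest fall was that of Mrps12, from an implied mean of 3357 normalized counts in SCLC to 679 in GSK, a log2 fold change of -2.31 ± 0.32 in the authors' deposited table (Benjamini-Hochberg adjusted p = 2.25e-11). Mrps24, in the head of the small subunit, went from 4982 to 1254 (-1.99 ± 0.29, adjusted p = 7.95e-11). Mrpl34 in the large subunit went from 4722 to 1011 (-2.22 ± 0.37, adjusted p = 1.93e-08). These 3 were the members whose fall was beyond a log2 fold change of 1 by a test against that size. Mrpl57, a small mitochondria-specific protein, went from 5574 to 1248 (-2.16 ± 0.44, adjusted p = 7.61e-06), and Mrps34 from 3288 to 839 (-1.97 ± 0.39, adjusted p = 3.6e-06), in the same deposited table. Exons of Mrps34 overlap Mapk8ip3 or Nme3 over 37.0% of their bases on the same strand and 63.4% on the other, and 15.4% of those of Mrps24 overlap Urgcp on the same strand. Their counts are therefore uncertain, since how the authors counted such reads is not given.

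By place in the ribosome, the 4 genes around the catalytic core were all lower, from -1.52 for Mrpl4 to -1.12 for Mrpl3, and 3 of the 4 with total-count scaling. Of the stalk genes, Mrpl12 fell from 9806 to 3293 normalized counts (-1.57 ± 0.32, adjusted p = 6.56e-06) and Mrpl10 and Mrpl11 fell by 1.35 ± 0.27 and 1.31 ± 0.33. Mrpl54 had -0.88 ± 0.39 and did not pass (adjusted p = 0.0637). At the exit tunnel 5 of 7 were lower, and Mrpl44 (-0.93 ± 0.33) and Mrpl45 (-0.87 ± 0.30) lost the call with total-count scaling and with the median gene set to 0. Total-count scaling left 1 of the 7 lower and made 1 higher. Of the central protuberance, 3 of 8 were lower, and 1 of 8 with total-count scaling or with the median gene set to 0. Mrpl46 was among them at -1.63 ± 0.34. In the small subunit, 4 of the 5 listed head genes and 6 of the 9 listed body and platform genes were lower. With total-count scaling, 1 and 3 of these were lower. Mrps5, which had the largest rise in SCLC, went from 6107 to 3130 normalized counts with GSK (-0.96 ± 0.38, adjusted p = 0.0347), and did not pass with total-count scaling (-0.46, adjusted p = 0.364).

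Other members were nearer to 0. Mrps17 had -0.14 ± 0.34, Mrps31 -0.39 ± 0.30, Mrps30 -0.44 ± 0.30 and Mrps18b -0.45 ± 0.29 in the authors' deposited table, and none of them passed. The 2 members that were lower in SCLC than in Normal were the 2 above 0 here: Mrpl33 with 0.59 ± 0.53 (adjusted p = 0.414) and Mrpl24 with 0.35 ± 0.25 (adjusted p = 0.275). Mrpl24 passed as higher with total-count scaling (0.86, adjusted p = 0.00247) and with the median gene set to 0 (0.60, adjusted p = 0.0457). Since both tables share the SCLC libraries, a low value there would give both signs.

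**Figure D4:**
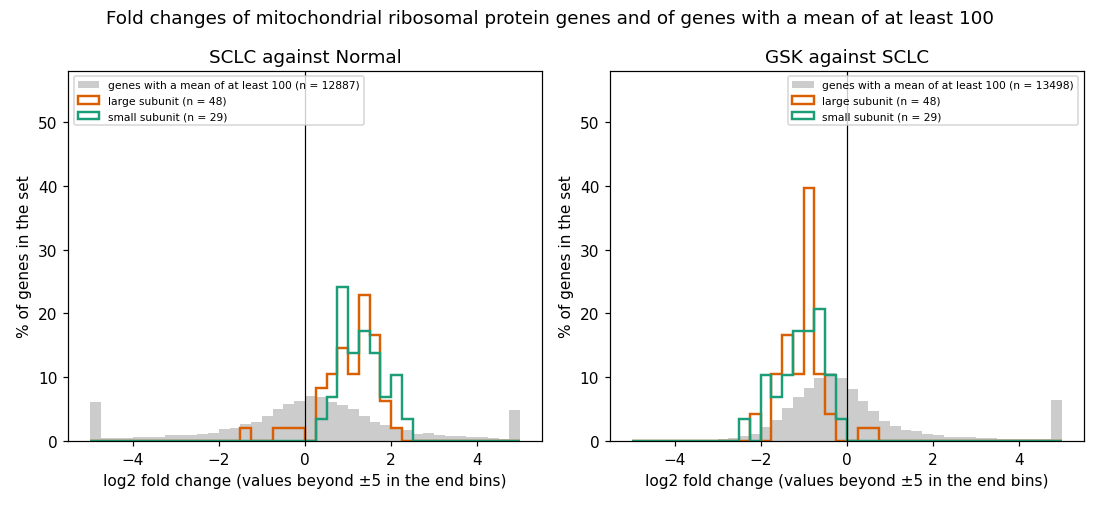
Share of genes (y axis, %) in bins of log2 fold change (x axis), for genes with a mean normalized count of at least 100 (grey) and for large (orange, n = 48) and small (green, n = 29) subunit genes. The members' medians are 1.19 and 1.32 in the left panel, where the grey median is 0.18, and -0.90 and -0.99 in the right, where it is -0.25.

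Members whose genes have few exons had lower median fold changes with GSK. The 19 genes with 2 or 3 exons had a median log2 fold change of -1.24 and 14 were lower, the 35 with 4 to 6 exons had -0.99 and 25 were lower, and the 23 with 7 or more had -0.78 and 11 were lower. The classes were chosen after the values were seen. In SCLC against Normal the medians of the same classes were 1.21, 1.12 and 1.26. Across the 77 members, Spearman's rho between the GSK fold change and exon number was 0.41, and with GC content -0.45. Over 12439 coding genes with a mean of at least 100 they were 0.17 and -0.29. These are descriptions across genes, which share libraries and are not independent. With the trends over length and GC content removed, 47 members were lower, 41 of them among the 50.

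Of the 78 members, 33 (42.3%) start within 1000 bases of a protein-coding gene that runs the other way, against 10.9% of 21951 protein-coding genes in GENCODE M21. Mrpl46 and Mrps11, a large and a small subunit gene, start 412 bases apart. Their log2 fold changes were 0.65 ± 0.31 and 1.35 ± 0.28 in SCLC, and -1.63 ± 0.34 and -1.81 ± 0.31 with GSK, in the authors' deposited tables. Mrps12 starts 172 bases from Sars2, the mitochondrial seryl-tRNA synthetase, which had 2.06 ± 0.27 in SCLC and -1.80 ± 0.30 with GSK. Mrpl36 starts 29 bases from Ndufs6, a subunit of respiratory complex I, at 1.14 ± 0.36 and -1.36 ± 0.39. Neighbours also moved in opposite directions: Mrpl2 rose by 1.57 ± 0.32 in SCLC while Klc4, a kinesin light chain gene 207 bases away, had -1.64 ± 0.22. Mrpl30 rose by 0.79 ± 0.27 while Mitd1, 66 bases away, had -1.49 ± 0.26. Of the 33 partners, 15 were higher and 5 lower in SCLC, where 25.3% of all genes tested were higher and 25.1% lower. With GSK 1 was higher and 13 lower, where 21.6% of all genes were higher and 15.5% lower. Among genes with a mean of at least 100, 29.2% were lower with GSK. Mrpl46 and Mrps11 count as each other's partner. Both are among the 13, and Mrps11 is among the 15. The partners were not counted again with total-count scaling.

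Some mitochondrial ribosomal proteins have other names. Of Dap3, Ptcd3, Chchd1, Aurkaip1 and Gadd45gip1, 4 were higher in SCLC and 4 lower in GSK in the authors' deposited tables. The GTP-binding Dap3 had 1.40 ± 0.21 (adjusted p = 8.22e-11) and -0.71 ± 0.24 (adjusted p = 0.0124), and Chchd1 had 1.70 ± 0.48 and -1.77 ± 0.50. With total-count scaling 1 of the 5 was lower in GSK. Of 22 assembly factors, 13 were higher and 1 lower in SCLC, and 12 were lower in GSK, 5 with total-count scaling, which also made 2 higher. Mrm3, which methylates the large ribosomal RNA, rose by 3.19 ± 0.30 in SCLC. Nsun4, an RNA methyltransferase that acts on the small ribosomal RNA and in the joining of the subunits, fell by 3.28 ± 0.27. Ddx28, an RNA helicase of large-subunit assembly, had the largest fall of the list with GSK (-1.75 ± 0.29).

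Of 17 mitochondrial translation factors, 6 were higher (35.3%) and 1 lower in SCLC. The elongation factor Tufm led (1.78 ± 0.20), while the initiation factor Mtif3 had -0.89 ± 0.30. Among genes with a mean of at least 100, 37.2% were higher in SCLC and 29.2% lower in GSK, near the shares of these factors. In GSK 5 of the 17 factors were lower (29.4%) and 1 higher, with Tsfm, the exchange factor of Tufm, at -1.64 ± 0.27. With total-count scaling 1 was lower and 3 higher, and their median of -0.39 turned to 0.12. Of the mitochondrial tRNA synthetases, 8 of 17 were higher in SCLC (47.1%). In GSK 6 of 16 were lower (37.5%), with a median of -0.50. With total-count scaling 2 were lower and the median turned to 0.01. Lars2 had the largest rise in SCLC (4.57 ± 0.82, adjusted p = 1.52e-07), and carried no adjusted p in the table of GSK. Its standard error in SCLC was the largest of the list, where the median was 0.24, so the size of its rise is uncertain.

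The messages that this ribosome translates were measured too. Of the 13 mitochondrially encoded mRNAs, mt-Nd3 was higher in SCLC (1.36 ± 0.45), mt-Nd5 (-0.79 ± 0.27) and mt-Nd6 (-0.77 ± 0.24) were lower, and 10 did not pass, with a median of -0.13. In GSK, mt-Nd6 was higher (0.73 ± 0.28) and 12 did not pass. Their median was -0.23, which turned to 0.28 with total-count scaling, when 5 of 13 were higher. The mitochondrial ribosomal RNAs mt-Rnr1 and mt-Rnr2 carried no p-value in either deposited table.

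Nuclear factors known to act on mitochondrial genes moved in different directions. Myc had a log2 fold change of 6.98 ± 0.39 in SCLC (adjusted p = 1.31e-70), and Pprc1 (2.22 ± 0.24), Ppargc1b (1.99 ± 0.37) and Nrf1 (1.11 ± 0.23) were also higher, in the authors' deposited table. Esrra was lower (-0.67 ± 0.22), and Gabpa, Gabpb1, Yy1 and Ppargc1a did not pass. In GSK, Ppargc1a was higher (1.67 ± 0.35), and Ppargc1b (-1.48 ± 0.35) and Myc (-1.18 ± 0.29) were lower. With total-count scaling, 2 of the 9 were higher and 1, Ppargc1b, was lower, while Myc did not pass. Whether any of them acts on the members was not tested.

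The cytosolic ribosomal protein genes were set beside the members. Of 78 tested, 60 were higher in SCLC with a median of 0.96, where the members' median was 1.21. In GSK 69 of 78 were lower with a median of -1.42, where the members' was -0.92. With total-count scaling 51 of the 78 were lower, with a median of -0.92, where 21 of the 77 members were, with -0.41. These are medians over different genes, and their difference was not tested.

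**Figure D5:**
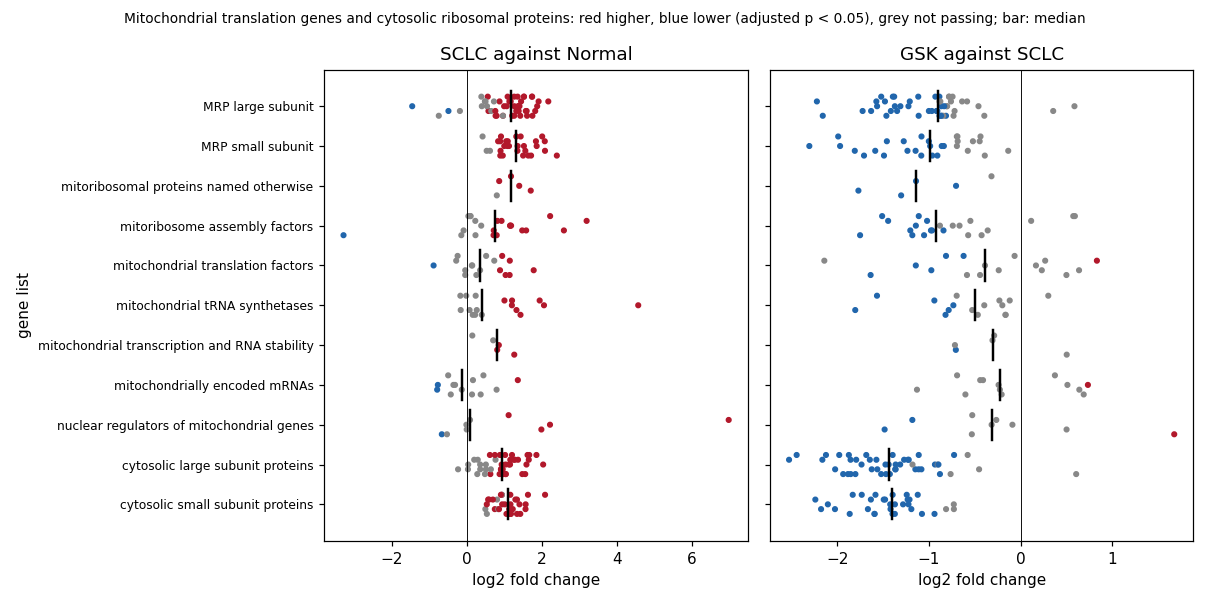
Log2 fold changes (x axis) of every tested gene in each list (y axis); each point is 1 gene, red higher and blue lower at an adjusted p under 0.05, grey not passing, and black bars are medians. The 2 subunits (MRP), the other mitoribosomal proteins and the cytosolic ribosomal proteins have medians from 0.94 to 1.32 on the left and from -1.43 to -0.90 on the right, and the mitochondrially encoded mRNAs have -0.13 and -0.23.

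Counting may have been affected by overlapping genes. In GENCODE M21, 18 of the 78 members share at least 10% of their exonic bases with another gene, 5 of them on the same strand. Besides Mrpl53, Mrps34 and Mrps24 these are Mrps18c (23.2%) and Mrps6 (19.9%). Mrps25 has 69.8% of its exonic bases opposite exons of Nr2c2. The library kit keeps the strand, and whether the counting used it is not given in the sources used here. The values of these genes are uncertain for that reason.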

How the data were processed

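RNA of 9 mouse organoid libraries was prepared with a stranded mRNA kit and sequenced as paired reads of 150 bases, per the labels' protocols. Reads were aligned with STAR 2.7.9a and the genome build was GRCm39, per the submitters' processing notes. The counting tool, its use of strand and the annotation were not given in the sources used here. Per the file headers, both deposited tables have the columns that DESeq2 writes. In the 2 comparison tables the authors deposited, the signal column holds each gene's mean normalized count over 6 libraries. The deposited log2 columns hold the fold change and its standard error, and the deposited score column is the first divided by the second. The deposited p-value columns hold a p-value and an adjusted p-value, which equalled a two-sided normal p-value with Benjamini-Hochberg adjustment when recomputed (within 0.0036 on the log10 scale). Library depths are unknown, so the number of libraries and the standard error alone give the precision.

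Implied group means were computed as the values whose mean is the deposited mean and whose ratio is the deposited fold change. Transcript lengths, GC content, exons, neighbours and overlaps came from GENCODE M21 (GRCm38), matched by Ensembl identifier for 78 of 78 members and used for no coordinates. Promoters are RefSeq's, on GRCm38.p6, whereas the files' build is GRCm39. Python 3.11.15, pandas 2.3.3, NumPy 2.4.6, SciPy 1.17.1 and matplotlib 3.10.9 were used, and the recomputed tests were checked on simulated data. A gene was called at an adjusted p under 0.05. The members were taken by the naming rule. Genes named in the text were the 5 largest rises and falls, members against the majority, the 3 highest levels per kilobase of each subunit and a list by role, beside those said to be chosen after their values were seen. The members, lists and tests were chosen with earlier results of these data known. Alternatives covered the scaling, the adjustment, the threshold, length and GC trends, a test beyond a log2 fold change of 1 and the definition of the subunits.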

Additional observations from a re-analysis of the deposited data

How the results depend on the processing

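No paired analysis was possible because the deposited tables hold comparisons and no library values; for the same reason no replicate could be left out in turn. In SCLC against Normal, a test beyond a log2 fold change of 1 left 11 members higher (5 large, 6 small) and 0 lower. Total-count scaling and an adjusted p under 0.01 each left 1 lower, of the large subunit. With the median gene set to 0, 3 were lower, all of the large subunit. Other alternatives gave 54 to 65 higher. The large minus small difference of medians was 0.14 with the listed bacterial homologues alone, a list without Mrps18b and Mrps28. In GSK against SCLC, the test beyond 1 left 3 lower (1 large, 2 small). Total-count scaling gave 21 lower (14 large, 7 small), 1 higher (large) and a median of -0.41. The median gene set to 0 gave 29 lower (17 large, 12 small) and 1 higher (large), and an adjusted p under 0.01 gave 33 lower, 20 of them large. Adjustment over other sets of genes gave 49 and 52, and removal of length and GC trends 47. Beyond these scalings and thresholds, the cause was not tested. Of 54 results for single named members, 11 lost and 1 gained its call with total-count scaling, 12 lost and 1 gained with the median gene at 0, 6 lost with trends removed and 35 with the test beyond 1, and none changed sign. Both the depth of each library and the spread behind each standard error are unknown.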
